A study of Mus musculus with 12 samples.

Results

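Phgdh, Psat1, Psph, Shmt1, Shmt2, Mthfd1, Mthfd1l, Mthfd2, Aldh1l2 and Asns encode enzymes that make serine and asparagine and move single carbons on folate. These 10 genes were picked by gene symbol for these roles, and all 10 were found among the 15478 genes of the authors' deposited table. Poly-A RNA was sequenced from primary neural precursor cells (NPC) of adult female C57BL/6 mice aged 5 to 12 weeks, progenitors that keep dividing in vitro and give rise to neurons and glia. One group received 100 µM H2O2, an oxidant, for 1 h, another the same dose for 8 h, and the controls a sham exposure to PBS. Each group holds 4 samples of the 12 in all, and the stated design has 1 sample of each group from each of 4 animals. All groups share the strain, sex, cell type and culture, and no group carries a labelled mutation. When the control cells were collected relative to the 1 h and 8 h cells is unknown from the sources used here.

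Serine is made from a glycolytic intermediate by Phgdh, Psat1 and Psph in turn. The hydroxymethyltransferases Shmt1 in the cytosol and Shmt2 in mitochondria then cleave serine to glycine and load the released carbon on folate. In mitochondria Mthfd2 and Mthfd1l carry that carbon to formate, Aldh1l2 oxidises it to carbon dioxide with release of NADPH, and in the cytosol Mthfd1 takes formate up again for purine, thymidylate and methionine synthesis. Asns makes asparagine from aspartate and glutamine. Transcription of many of these genes is known to be raised by ATF4, a factor whose own translation is favoured when eIF2 alpha is phosphorylated under stress. In the brain Phgdh is known to be high in radial glia, neural stem cells and astrocytes, and serine is known to feed the making of NADPH and glutathione, which are defences against peroxide.

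The authors' deposited table holds, for each gene and comparison, a log2 fold change, a likelihood ratio and a p-value adjusted over all genes, and no value of a single sample, so the spread between samples cannot be shown. The error after each log2 fold change is the standard error implied by that likelihood ratio, computed here, and intervals are 95% intervals from it. A gene is said to have risen or fallen where its adjusted p from the authors' edgeR likelihood ratio test is below 0.05. Fold changes put the longer or peroxide-treated condition over the other, and the 1 h and 8 h comparisons share their controls. The samples are bulk cultures, so a lower share of a cell type and less RNA per cell cannot be told apart. The read depth of each sample is unknown beyond the stated minimum of 14 M reads per library.

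At 8 h, Asns had the highest fold change of the 10 genes and Shmt1 the lowest, and no gene of the 10 changed by as much as 2-fold in any comparison. Phgdh, Psph, Shmt2, Mthfd1 and Asns rose at 8 h against control, and Psat1, Shmt1 and Aldh1l2 fell. In the authors' deposited table these are 5 risen and 3 fallen genes of 10, beside 27.4% risen, 28.2% fallen and 55.7% called in either direction among all genes. At 1 h against control Shmt1, Mthfd2 and Asns rose and Mthfd1, Mthfd1l and Aldh1l2 fell, 3 genes each way, beside 20.5% risen, 22.2% fallen and 42.7% called among all genes of the authors' deposited table. All 10 genes differed between 8 h and 1 h of peroxide, 6 higher and 4 lower at 8 h, where 30.3% of all genes in the authors' deposited table were higher, 32.4% lower and 62.7% called. The median log2 fold change of the 10 genes in the authors' deposited table was 0.05 at 1 h and 0.17 at 8 h against control, beside 0.01 over all genes at each time. For 8 h against 1 h this median was 0.20, beside -0.01 over all genes. Many of the changes were small: at an absolute log2 fold change of at least 0.25 in the authors' deposited table, 1 gene rose and 0 fell at 1 h, beside 12.8% and 10.8% of all genes. At 8 h with that minimum 3 rose and 3 fell, beside 15.5% and 20.2%.

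**Figure D1:**
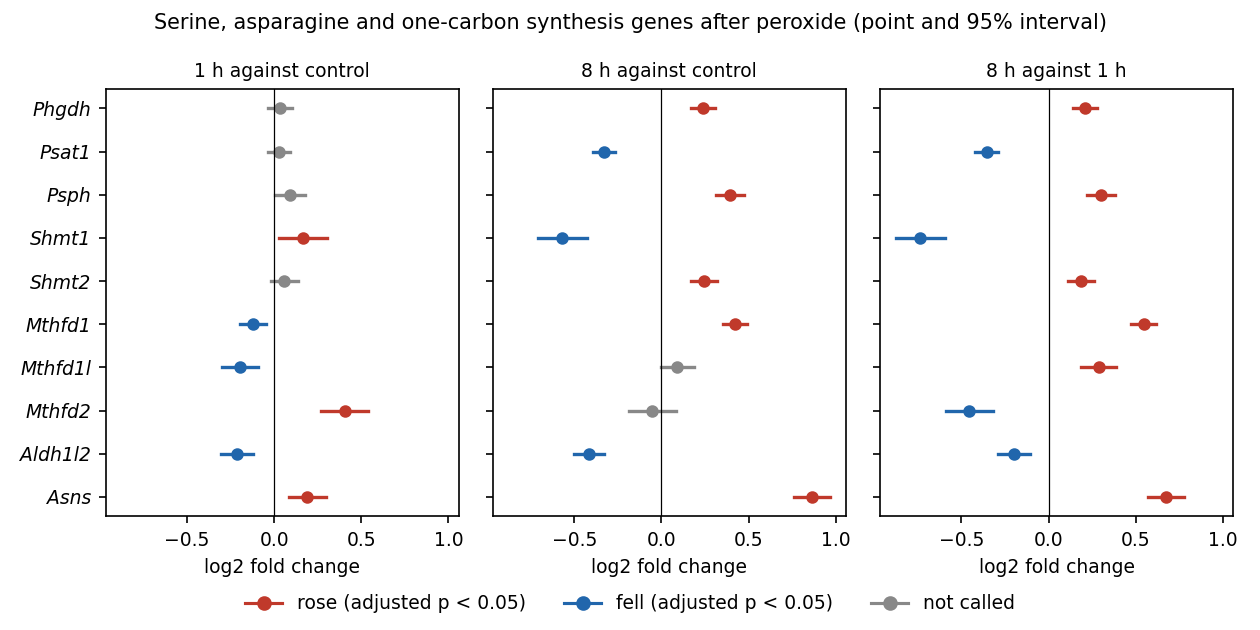
Log2 fold change of each of the 10 genes (point) with its 95% interval (line) at 1 h against control, 8 h against control and 8 h against 1 h. Red marks genes that rose and blue genes that fell at an adjusted p below 0.05, and grey the others. At 8 h Asns lies at 0.86 and Shmt1 at -0.57.

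By time, the 10 genes fell into several patterns. Asns rose at both times, Aldh1l2 fell at both times, and Mthfd1 and Shmt1 moved one way at 1 h and the other way at 8 h. Phgdh, Psat1, Psph and Shmt2 were called at 8 h and not at 1 h, while Mthfd2 and Mthfd1l were called at 1 h and not at 8 h. The counts are 4 called at both times, 4 at 8 h alone and 2 at 1 h alone. Among all genes of the authors' deposited table, 42.7% were called at 1 h and 55.7% at 8 h. The share of all genes in each pattern was not computed, so these counts do not set the 10 genes apart. The direct comparison of 8 h with 1 h tests these differences in time, and each passed it.

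**Figure D2:**
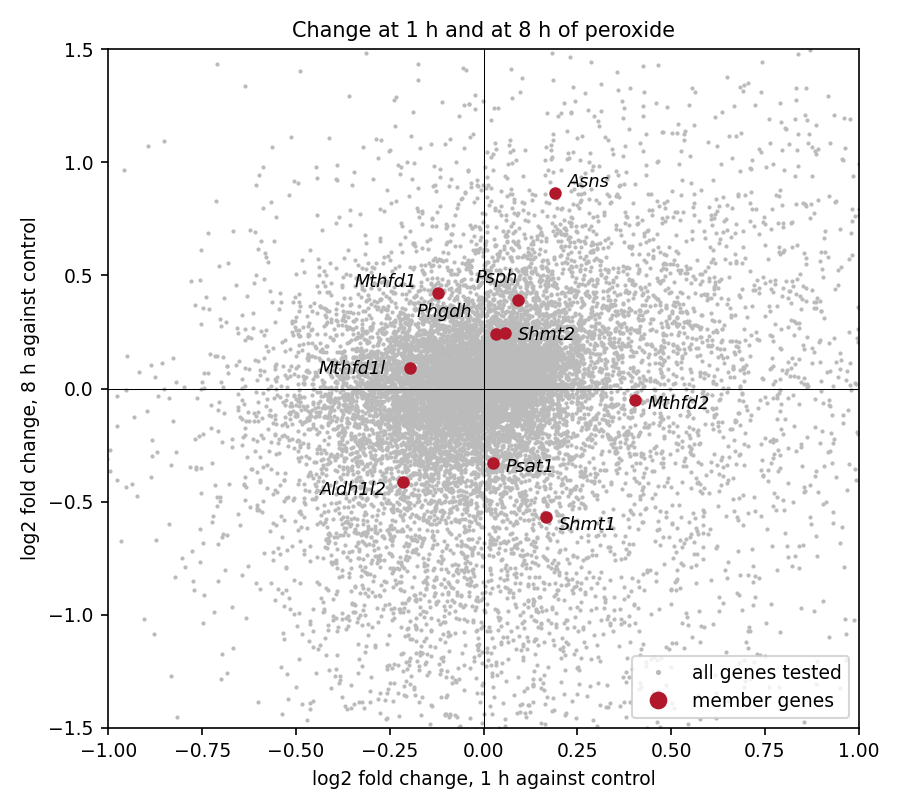
Log2 fold change at 1 h against control (horizontal) and at 8 h against control (vertical) for all genes tested (grey) and the 10 enzyme genes (red), with axes cut at 1 and 1.5 log2 units. Asns lies at 0.19 and 0.86, Shmt1 at 0.17 and -0.57 and Mthfd2 at 0.40 and -0.05, so the 10 genes spread over all 4 sign combinations.

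All 10 genes passed the authors' filter on low counts. Over all samples, Psat1 had the highest mean in the authors' deposited table at 8.44 log2 CPM (counts scaled to library size), with 2.63% of all genes above it, and Shmt1 the lowest at 4.29 log2 CPM, with 46.8% of all genes below it. Per kilobase of exon, the order of the authors' mean levels was Psat1 (6.35 log2 CPM per kb), Phgdh (6.14), Shmt2 (5.58), Mthfd1 (5.26) and Asns (4.94), then Psph (3.80), Mthfd2 (3.75), Mthfd1l (3.26), Aldh1l2 (2.71) and Shmt1 (2.34), from the deposited means and exon lengths. By this level the cytosolic Shmt1 lay below its mitochondrial partner Shmt2. With a single mean per gene, whether neighbours in this order differ beyond their spread cannot be tested.

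The serine synthesis genes did not move together. At 1 h no gene of the 3 was called, and at 8 h Phgdh and Psph rose while Psat1, the enzyme between them, fell. For Phgdh, the first and rate-limiting enzyme, the authors' deposited table gives a log2 fold change of 0.03 ± 0.04 (adjusted p = 0.477) at 1 h and of 0.24 ± 0.03 (adjusted p = 2.6e-11) at 8 h, a rise of 18.2% at 8 h. Phgdh lies on chromosome 3 from 98313170 to 98339990 on the minus strand of GRCm38. Psat1, the aminotransferase of the pathway, lies on chromosome 19 from 15904678 to 15947337 on the minus strand. Its log2 fold change in the authors' deposited table was 0.03 ± 0.03 (adjusted p = 0.557) at 1 h and -0.33 ± 0.03 (adjusted p = 1.1e-23) at 8 h, so its RNA fell by 20.5% at 8 h. Psph, the phosphatase that releases serine, lies on chromosome 5 from 129765558 to 129787449 on the minus strand. The authors' deposited table gives it 0.09 ± 0.04 (adjusted p = 0.0848) on the log2 scale at 1 h, with an interval of 0.004 to 0.177, and 0.39 ± 0.04 (adjusted p = 1.0e-20) at 8 h. From 1 h to 8 h the differences in the authors' deposited table were 0.21 ± 0.04 for Phgdh, -0.36 ± 0.03 for Psat1 and 0.30 ± 0.04 for Psph on the log2 scale.

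Phgdh values carry a counting uncertainty. In 19 other GENCODE genes, a stretch of at least 200 bases matches its longest protein-coding transcript at 90% identity or more. How reads shared between copies were counted is unknown from the sources used here. A single such copy, Gm7901, is in the authors' deposited table, at a mean of 0.72 log2 CPM and with no call at either time. Psat1 and Shmt2 have 1 such copy each, neither in the table. Psph shares 452 exonic bases, 10.4% of its exons, with Cct6a on the opposite strand, and whether counting used the strand is not given. Cct6a, a chaperonin subunit gene, was not called at 1 h or 8 h in the authors' deposited table. Its mean there was 9.05 log2 CPM, above the 5.91 of Psph, and its part in the Psph values was not tested.

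Serine cleavage genes parted in opposite directions at 8 h. Shmt2, the mitochondrial enzyme, rose by 18.4% and Shmt1, the cytosolic enzyme, fell by 32.6% in the authors' deposited table. Shmt2 lies on chromosome 10 from 127517123 to 127522444 on the minus strand. Its log2 fold change in the authors' deposited table was 0.06 ± 0.04 (adjusted p = 0.233) at 1 h and 0.24 ± 0.04 (adjusted p = 5.6e-10) at 8 h. Shmt1 lies on chromosome 11 from 60788104 to 60811718 on the minus strand. The authors' deposited table gives Shmt1 0.17 ± 0.07 (adjusted p = 0.0416) on the log2 scale at 1 h and -0.57 ± 0.07 (adjusted p = 8.3e-15) at 8 h. The difference of 8 h from 1 h in the authors' deposited table was -0.74 ± 0.07 (adjusted p = 3.8e-24) for Shmt1 and 0.19 ± 0.04 (adjusted p = 2.8e-06) for Shmt2. The 1 h rise of Shmt1 is the weakest call among the 10 genes, and with every gene centred on the median of all genes its adjusted p was 0.0617. Shmt1 also shares 184 exonic bases with Smcr8 on the opposite strand, a gene that rose by 0.28 at 1 h and by 0.25 at 8 h on the log2 scale in the authors' deposited table.

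Among the enzymes that pass carbon along folate, mitochondrial Mthfd2 rose at 1 h and was not called at 8 h, and cytosolic Mthfd1 fell at 1 h and rose at 8 h. Mthfd2, a dehydrogenase and cyclohydrolase that is high in dividing and embryonic cells, had the highest 1 h value of the 10 genes, 0.40 ± 0.07 (adjusted p = 6.5e-08) on the log2 scale or 1.32-fold in the authors' deposited table. At 8 h the authors' deposited table gives Mthfd2 -0.05 ± 0.07 (adjusted p = 0.542), with an interval of -0.19 to 0.08. The drop of Mthfd2 between the times was called, at -0.46 ± 0.07 (adjusted p = 1.4e-10) for 8 h against 1 h in the authors' deposited table. Mthfd2 lies on chromosome 6 from 83305691 to 83325908 on the minus strand. Mthfd1, the trifunctional cytosolic enzyme on chromosome 12 from 76255298 to 76319803 on the plus strand, was -0.12 ± 0.04 (adjusted p = 0.00418) at 1 h and 0.42 ± 0.04 (adjusted p = 2.0e-30) at 8 h on the log2 scale in the authors' deposited table. Its difference of 8 h from 1 h, 0.54 ± 0.04 (adjusted p = 1.6e-48), was the third in size after those of Shmt1 and Asns in the authors' deposited table.

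Mthfd1l, the mitochondrial formate-releasing synthetase on chromosome 10 from 3973118 to 4167081 on the plus strand, fell at 1 h by 0.19 ± 0.05 on the log2 scale in the authors' deposited table (adjusted p = 9.2e-04). At 8 h it was not called, at 0.09 ± 0.05 (adjusted p = 0.0984) in the authors' deposited table, with an interval of -0.0038 to 0.19. Aldh1l2, the mitochondrial enzyme that yields NADPH from formyl folate, lies on chromosome 10 from 83487450 to 83534140 on the minus strand. It fell by 0.22 ± 0.05 at 1 h (adjusted p = 2.1e-05) and by 0.41 ± 0.04 at 8 h (adjusted p = 1.9e-19) on the log2 scale, in the authors' deposited table. Aldh1l2 shares 1056 exonic bases, 14.1% of its exons, with the opposite-strand gene Nopchap1 (D10Wsu102e). That gene also fell in the authors' deposited table, to -0.28 at 1 h and -0.31 at 8 h on the log2 scale, and its part in the Aldh1l2 values was not tested.

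The 1 h falls of Mthfd1 and Mthfd1l went with the length of these genes. Mthfd1 spans 64.5 kb and Mthfd1l 194 kb of the genome, the longest of the 10, while Shmt2 spans 5.32 kb. At 1 h the median log2 fold change over all genes of the authors' deposited table was 0.15 in the shortest eighth of genes by span, -0.11 in the eighth that holds Mthfd1 and -0.24 in the longest eighth, which holds Mthfd1l. Set against genes of their own eighth, the 1 h value of Mthfd1 from the authors' deposited table was -0.01 (adjusted p = 0.895) and that of Mthfd1l 0.05 (adjusted p = 0.514). The 1 h rise of Mthfd2 was 0.35 (adjusted p = 6.5e-06) and the fall of Aldh1l2 -0.18 (adjusted p = 0.000569) on that scale, from the authors' deposited table. On that scale 2 genes of the 10 rose and 1 fell at 1 h, in place of 3 and 3, since Shmt1 at 0.14 missed the threshold as well (adjusted p = 0.0945).

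**Figure D3:**
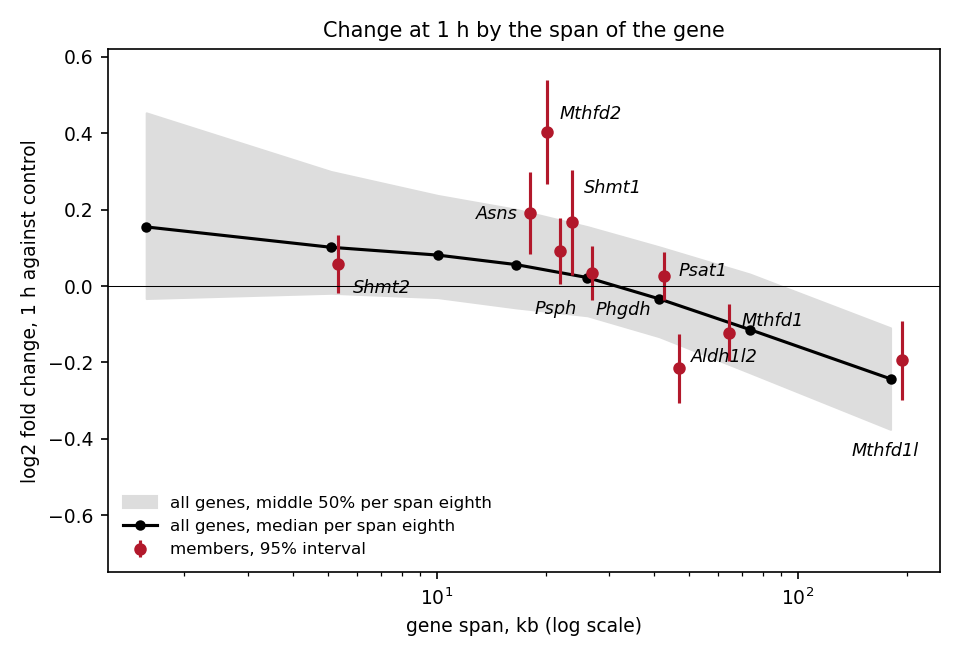
Log2 fold change at 1 h against control by genomic span in kb (log axis). Red points and lines are the 10 genes with 95% intervals, black points the medians of all genes in 8 groups of equal size by span, and the grey band the middle 50% of genes in each group. The medians run down to -0.24 in the longest group, and Mthfd1 and Mthfd1l lie near them, while Mthfd2 at 0.40 lies above its group.

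Asns had the largest 8 h change of the 10 genes and is the one asparagine-making enzyme. It lies on chromosome 6 from 7675169 to 7693254 on the minus strand. The authors' deposited table gives Asns 0.19 ± 0.05 (adjusted p = 0.00187) on the log2 scale at 1 h and 0.86 ± 0.05 (adjusted p = 1.1e-59) at 8 h, a rise to 1.82-fold of control with an interval of 0.76 to 0.97 on the log2 scale. Between the times the log2 difference in the authors' deposited table was 0.67 ± 0.05 (adjusted p = 6.9e-37). Even so, 11.1% of all genes in the authors' deposited table had a larger absolute change at 8 h.

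The promoter of Asns is shown because it holds the C/EBP-ATF response element core, the kind of site through which ATF4 is known to act on amino acid genes. The sequence is from RefSeq on GRCm38.p6, chr6:7693225-7693459, minus strand, 5′ to 3′, and ends with the matched bases, in capitals:
Asns: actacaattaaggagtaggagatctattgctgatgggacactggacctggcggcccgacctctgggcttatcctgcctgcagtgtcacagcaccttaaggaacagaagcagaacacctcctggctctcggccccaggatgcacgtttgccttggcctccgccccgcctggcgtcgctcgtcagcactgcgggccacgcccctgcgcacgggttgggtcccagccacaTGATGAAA
The match lies 23 bases before the RefSeq start of Asns and 22 bases inside the outermost GENCODE start. The core was searched as TGATGNAA on both strands of the 300 bases from 250 before to 50 after each RefSeq start. Asns alone matched it among the 9 genes of the 10 with a promoter entry, and 4.51% of 27025 mouse genes searched hold it. Aldh1l2 had no entry and Psat1 had 2 promoters. The E-box CACGTG, the E2F core TTTNGCGC and the cAMP response element TGACGTCA matched 0 of the 9 genes, and are in 8.09%, 1.57% and 2.03% of all genes.

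The antioxidant response element core, TGACNNNGC, the kind of site bound by the oxidant-activated factor NRF2, matched on the reverse strand in Phgdh, Psph and Asns, 3 of 9 genes, and is held by 14.0% of all genes. These 3 genes rose at 8 h, as did Shmt2 and Mthfd1, whose promoters lack the core, and the part of NRF2 was not tested. The 3 sites are shown in RefSeq sequence of GRCm38.p6 with the core in capitals. They read 5′ to 3′ on the minus strand, on which all 3 genes lie:
Phgdh, chr3:98340004-98340032: gcccggggagGCGGAGTCAgcagagttta
Psph, chr5:129787231-129787259: acgcccagttGCGACGTCAttgcgcatct
Asns, chr6:7693363-7693391: tatcctgcctGCAGTGTCAcagcacctta
The matches begin 53 bases before the start of Phgdh, 4 bases after that of Psph and 172 bases before that of Asns. A match is a likeness of letters, and binding was not measured here.

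Most genes for the kinases and factors known to act on these enzymes were already called at 1 h. Of 11 such genes, 6 rose and 4 fell at 1 h, and 6 rose and 3 fell at 8 h, in the authors' deposited table, with medians of 0.15 and 0.13 on the log2 scale. Of all genes there, 20.5% rose and 22.2% fell at 1 h, and 27.4% rose and 28.2% fell at 8 h. These shares stand beside the counts of every list below. Atf4 RNA was 0.64 ± 0.04 at 1 h and 0.13 ± 0.04 at 8 h, and fell between the times, at -0.51 ± 0.04 (adjusted p = 1.0e-31) for 8 h against 1 h in the authors' deposited table. Atf5, a related factor, was 0.21 ± 0.04 at 1 h and 0.69 ± 0.04 at 8 h, and was higher at 8 h than at 1 h by 0.48 ± 0.04 (adjusted p = 1.3e-28) in the authors' deposited table. Nfe2l2, the gene of NRF2, rose at both times, by 0.24 ± 0.03 and 0.41 ± 0.03, and Myc, a factor known to raise serine and folate genes in dividing cells, fell by 0.17 ± 0.04 at 1 h and 0.47 ± 0.04 at 8 h, in the authors' deposited table. Among the rest of the list, the stress factor genes Ddit3 and Cebpb rose at both times, and Cebpg at 1 h alone was called, at 0.15 ± 0.05 in the authors' deposited table. Of the eIF2 alpha kinase genes, Eif2ak2, whose kinase senses double-stranded RNA, rose at 8 h by 0.46 ± 0.05 and was not called at 1 h, at -0.10 ± 0.06, in the authors' deposited table. Eif2ak4, whose kinase senses uncharged tRNA, fell at 1 h by 0.33 ± 0.06 and at 8 h by 0.13 ± 0.05 in the authors' deposited table. Eif2ak3, whose kinase senses stress in the endoplasmic reticulum, fell by 0.12 ± 0.04 at 1 h and 0.15 ± 0.04 at 8 h in the authors' deposited table. Eif2ak1, whose kinase senses low haem, fell by 0.12 ± 0.04 at 1 h and was not called at 8 h, at 0.09 ± 0.04, in the authors' deposited table. These are RNA levels, and neither ATF4 protein nor eIF2 alpha phosphorylation was measured.

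**Figure D4:**
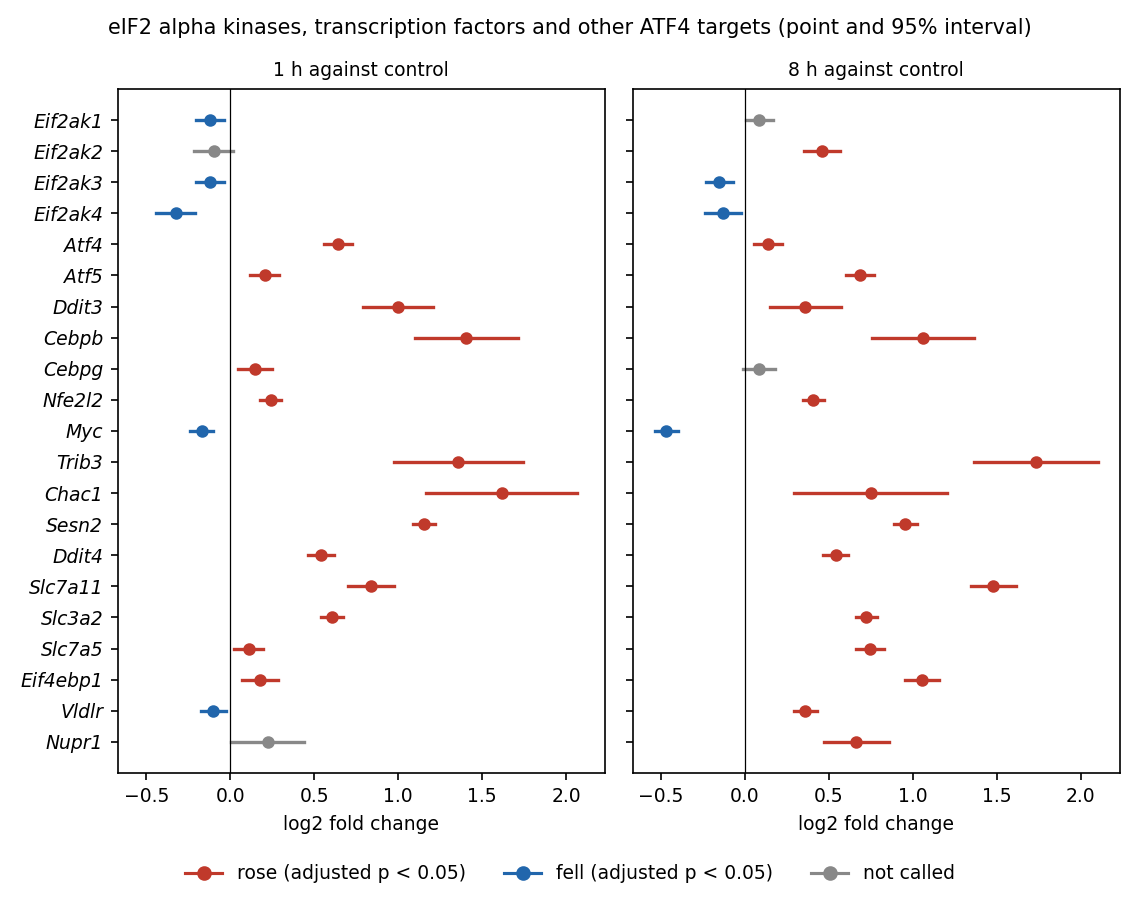
Log2 fold change (point) and 95% interval (line) at 1 h and 8 h against control of 11 genes for eIF2 alpha kinases and transcription factors and of 10 other known ATF4 targets. Red marks a rise and blue a fall at an adjusted p below 0.05. Atf4 lies at 0.64 at 1 h and 0.13 at 8 h, and all 10 other targets lie above 0 at 8 h.

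The 10 other known ATF4 targets listed here nearly all rose, and their medians lay above those of the enzyme genes. The list is not a full set of ATF4 targets, and it was chosen with earlier results of these data known. In the authors' deposited table, 8 of the 10 listed targets rose and 1, the lipoprotein receptor gene Vldlr, fell at 1 h. At 8 h 10 rose, and the medians at 1 h and 8 h were 0.57 and 0.75 on the log2 scale. Of all genes there, 20.5% rose and 22.2% fell at 1 h, and 27.4% rose at 8 h. Sesn2, a stress-induced inhibitor of growth signalling, was 1.16 ± 0.03 at 1 h and 0.96 ± 0.03 at 8 h in the authors' deposited table. Slc7a11, the cystine importer gene, was 0.84 ± 0.07 at 1 h and 1.48 ± 0.07 at 8 h, its partner Slc3a2 0.61 ± 0.03 and 0.72 ± 0.03, and the translation repressor gene Eif4ebp1 0.18 ± 0.06 and 1.05 ± 0.05, in the authors' deposited table. Several of these genes are also known NRF2 targets. At 8 h this list ran between 0.36 and 1.73 in the authors' deposited table. Of the 10 enzyme genes, Asns at 0.86, Mthfd1 at 0.42 and Psph at 0.39 lay within that range, and the other 7 lay between -0.57 and 0.24 in the authors' deposited table.

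Around the 10 genes, the rest of the folate cycle changed in both directions. Of 16 other folate genes in the authors' deposited table, 4 rose and 3 fell at 1 h, and 1 rose and 4 fell at 8 h, with medians of -0.04 and -0.08. Tyms, the thymidylate synthase, was 0.20 ± 0.07 at 1 h and -0.83 ± 0.08 at 8 h on the log2 scale in the authors' deposited table. Aldh1l1, the cytosolic relative of Aldh1l2 and also an astrocyte marker, fell at 1 h by 0.29 ± 0.03, and Sfxn3, a relative of the mitochondrial serine carrier Sfxn1, rose at 8 h by 0.26 ± 0.03, in the authors' deposited table. Mthfd2l, the near relative of Mthfd2, was not called at either time, at -0.03 ± 0.06 and -0.05 ± 0.06 in the authors' deposited table. Tyms is also an S-phase gene, and of 15 DNA replication genes 10 rose and 1 fell at 1 h and 15 fell at 8 h in the authors' deposited table. The medians of the replication genes were 0.21 at 1 h and -1.13 at 8 h on the log2 scale, with the helicase gene Mcm5 at 0.21 ± 0.04 and -1.74 ± 0.05 in the authors' deposited table. Shmt1 and Mthfd2 were likewise higher at 1 h than in control and lower at 8 h than at 1 h, and the part of cell cycle in their values was not tested.

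Genes that use serine, glycine and their carbon were split as well. In glycine cleavage, Gldc, the decarboxylase, fell at 1 h by 0.22 ± 0.04 and Dld, the shared dehydrogenase, rose at 8 h by 0.29 ± 0.03, in the authors' deposited table, and no other call was made among the 4 genes, whose medians were -0.02 and -0.03. Of 11 purine synthesis genes in the authors' deposited table, 2 rose and 1 fell at 1 h, and 6 rose and 4 fell at 8 h, with medians of 0.07 and 0.11. Adsl rose at 8 h by 0.25 ± 0.04, Gart, an enzyme that takes carbon from formyl folate, by 0.20 ± 0.03, and Impdh2, which leads to guanine nucleotides, fell by 0.16 ± 0.04, in the authors' deposited table. Of 10 methionine cycle and transsulfuration genes in the authors' deposited table, 3 rose and 4 fell at each time, with medians of 0.004 and -0.07. Cth, the enzyme that makes cysteine from cystathionine, rose at 8 h to 1.20 ± 0.12 on the log2 scale in the authors' deposited table. Mtr, which takes folate carbon for methionine, was -0.27 ± 0.04 at 1 h and 0.40 ± 0.04 at 8 h in the authors' deposited table, the same order of directions as Mthfd1. Mat2a, which makes the methyl donor from methionine, was 0.12 ± 0.04 and -0.26 ± 0.04 in the authors' deposited table.

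Serine-handling membrane and lipid genes held large changes in both directions. Of 9 genes in the authors' deposited table, 1 rose and 3 fell at 1 h and 4 rose and 1 fell at 8 h, with medians of -0.09 and 0.06. Serinc3 rose at 8 h by 0.78 ± 0.03 and its relative Serinc5 fell by 1.17 ± 0.07 in the authors' deposited table. Srr, the racemase that makes D-serine, a ligand of NMDA receptors, rose at 8 h by 0.31 ± 0.05 in the authors' deposited table. Of 8 carrier genes in the authors' deposited table, 1 rose and 3 fell at 1 h, and 2 rose and 3 fell at 8 h, with medians of -0.11 and -0.02. The neutral amino acid importer genes Slc38a2 and Slc38a1 fell at 8 h by 0.80 ± 0.04 and 0.40 ± 0.04, and the glycine transporter gene Slc6a9 rose by 0.57 ± 0.05, in the authors' deposited table.

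Among genes that share substrates with Asns, Ass1 rose and Asrgl1 fell at 8 h, each more than 2-fold. Of 15 glutamate, aspartate and proline genes in the authors' deposited table, 3 rose and 1 fell at 1 h and 4 rose and 3 fell at 8 h, with medians of 0.03 and 0.02. Ass1, which uses aspartate to make argininosuccinate, was 0.11 ± 0.13 at 1 h and 2.18 ± 0.09 at 8 h in the authors' deposited table. Asrgl1, an asparaginase that breaks asparagine down, fell at 8 h by 1.13 ± 0.05 in the authors' deposited table, opposite to Asns. Gpt2, the mitochondrial alanine aminotransferase, fell at 8 h by 0.54 ± 0.04 and Pycr1, the mitochondrial proline-making enzyme, rose by 0.52 ± 0.08, in the authors' deposited table. Of 5 tRNA synthetase genes for serine, asparagine and glycine in the authors' deposited table, 1 rose at 1 h and 4 rose at 8 h, with medians of 0.07 and 0.29. At 8 h these were Gars at 0.42 ± 0.04, Nars at 0.34 ± 0.03, Sars at 0.29 ± 0.03 and the mitochondrial Nars2 at 0.28 ± 0.07 in the authors' deposited table, while Sars2 was not called.

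**Figure D5:**
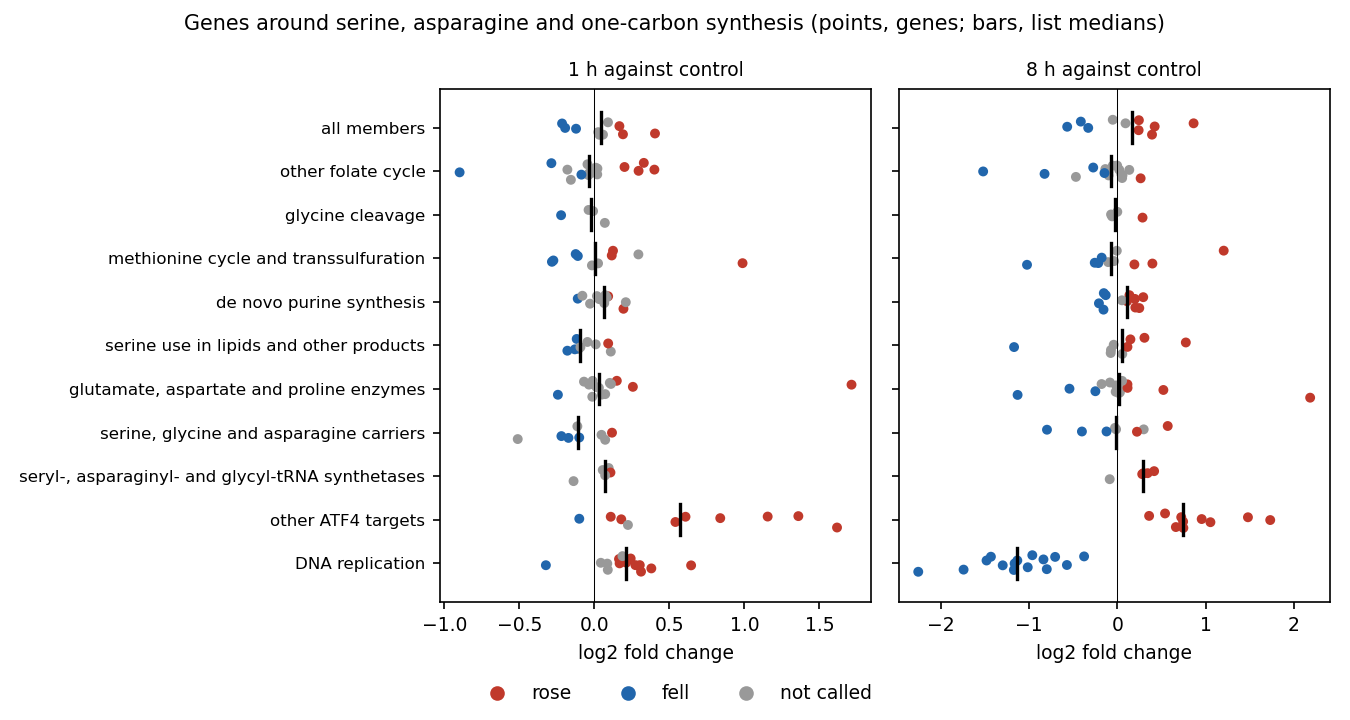
Log2 fold change at 1 h and 8 h against control for the 10 enzyme genes and for the gene lists around them, each point a gene (red rose, blue fell, grey not called) and each bar the list's median. The 10 other ATF4 targets have a median of 0.75 at 8 h and the 15 DNA replication genes one of -1.13. The median of the 10 enzyme genes, 0.17, lies between these medians, while single enzyme genes overlap both lists.

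Genes nearest to Asns and Shmt1 in the plane of 1 h and 8 h log2 fold changes, among those with a mean of at least 1 log2 CPM, were found by straight distance. For Asns they were Ei24, at a distance of 0.024 log2 units, Ak1 at 0.048 and Fbxw9 at 0.053 in the authors' deposited table, with 21 genes within 0.1. For Shmt1 they were Syngr3 at 0.011, Nemp2 at 0.017 and Qpct at 0.024 in the authors' deposited table, with 70 genes within 0.1. The likeness is over 2 comparisons only, which share their controls.

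The cultures expressed precursor markers, with Nes at 10.59, Vim at 11.97 and Sox2 at 8.43 log2 CPM on average in the authors' deposited table, and glial and neuronal genes besides. Of 8 astrocyte markers, 1 rose and 6 fell at each time, with medians of -0.29 at 1 h and -0.43 at 8 h in the authors' deposited table, and their means ran between 4.74 and 9.26 log2 CPM. Of 8 oligodendrocyte lineage markers 0 rose at either time, 4 fell at 1 h and 7 at 8 h, where the median was -0.78 in the authors' deposited table. Of 7 neuron markers 0 rose at either time, 2 fell at 1 h and 5 at 8 h, where the median was -0.76 in the authors' deposited table. Of the 10 precursor markers, 1 rose and 3 fell at 1 h, and 3 rose and 5 fell at 8 h, in the authors' deposited table. Microglia markers were low, with 2 of 7 in the authors' deposited table and neither above a mean of 0.37 log2 CPM, as were endothelial and mural markers, with 4 of 7 present and none above 0.08. Of 6 ependymal markers 4 were present in the authors' deposited table, and 2 rose and 0 fell at each time. Foxj1 rose at both times, with a mean of 5.00 log2 CPM and a log2 fold change of 0.78 ± 0.06 at 8 h in the authors' deposited table. Ak7 rose at 1 h alone, Ccdc153 at 8 h alone, and Rarres2 was not called at either time. Their means were low in the authors' deposited table, at -0.51, 0.11 and -0.70 log2 CPM in that order. Psat1, Shmt1 and Aldh1l2 fell alongside the glial and neuronal markers, Phgdh, an astrocyte-enriched gene, rose against them, and the part of cell make-up in these values was not tested.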

How the data were processed

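Poly-A RNA libraries of 12 samples were sequenced. The authors deposited log2 fold changes and mean log2 CPM per gene, the likelihood ratio as a test statistic (a score), and each p-value with its adjusted form, from the edgeR GLM test per the file headers. A second deposited table holds a voom and limma fit. The deposited tables also hold other columns, such as exon length and the authors' calls. Columns with values of single samples number 0, so depth per sample is unknown and the planned test of counts was replaced by the deposited GLM test, as the design provided. Per their labels, the deposited tables leave out low genes and outlier samples. Which ones, and so how many of the 4 samples per group entered each test, is not known from the sources used here, nor are aligner, annotation release, strand setting or design formula. Build GRCm38, edgeR and limma are named in the submitters' processing notes.

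Standard errors were computed here by dividing the size of each log2 fold change by the root of its likelihood ratio. Their median ratio to the voom standard error was 1.06, 1.01 and 1.00 over the 3 comparisons. The deposited adjusted p equalled a Benjamini-Hochberg adjustment over 15478 genes, and 0 calls differed. The p-values set each difference against the spread between samples as the authors modelled it, with a design formula not known here. Gene positions, spans and overlaps are from the GENCODE M21 annotation of GRCm38, and promoters from RefSeq, with the genes of 1 chromosome left out of motif shares.

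The 10 genes and the lists around them were chosen with earlier results of these data known. Of 184 list entries 166 matched by symbol and 1 by synonym, and 17 were not found. Named were all 10 genes, up to 4 genes per list with the smallest adjusted p, and the 3 genes nearest to the highest and the lowest of the 10. Of the genes this rule takes, 1 is not reported here. Other genes named (Mthfd2l, Vldlr, Sars2, Gm43890, overlapping genes and copies, and the remaining factors and kinases) were chosen after their values were seen. Alternatives were the voom table, centring on the median of all genes or of genes of like span, a minimum fold change, a stricter threshold and a filter on low means. Scripts used Python 3.11.15 with pandas 2.3.3, numpy 2.4.6, scipy 1.17.1 and matplotlib 3.10.9.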

Additional observations from a re-analysis of the deposited data

Results flagged for a closer look

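All 10 genes differed between 8 h and 1 h of peroxide in the authors' direct comparison, which is the difference of their effects at the 2 times. On the log2 scale of the authors' deposited table, 8 h was higher by 0.21 for Phgdh, 0.30 for Psph, 0.19 for Shmt2, 0.54 for Mthfd1, 0.29 for Mthfd1l and 0.67 for Asns. It was lower, at -0.36 for Psat1, -0.74 for Shmt1, -0.46 for Mthfd2 and -0.20 for Aldh1l2. Of all genes, 62.7% were called in that comparison, so a call there is common. In the authors' deposited table, Mthfd1 and Shmt1 were called in opposite directions at 8 h and 1 h.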

How the results depend on the processing

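Over 6 alternatives, 163 of 180 values of the 10 genes kept direction and side of the threshold. Another 14 kept direction and lost their call, 1 gained a call and 2 changed sign. Of the values that changed sign, that of Mthfd1l at 1 h also lost its call. The stricter threshold, the minimum fold change and the filter on low means keep the log2 fold changes, so direction could not change there. That filter also could not remove any of the 10 genes, so the total overstates what was varied. Centred on genes of like span, 1 gene fell at 1 h in place of 3, beside 17.9% of all genes. Shmt2 at -0.044 and Mthfd1l at 0.048 on the log2 scale changed sign at 1 h in that setting. Mthfd1l was called there at 8 h (0.21, adjusted p = 4.1e-05). With an absolute log2 fold change of at least 0.25, 1 gene rose and 0 fell at 1 h, beside 12.8% and 10.8% of all genes. With that minimum 3 rose at 8 h in place of 5, beside 15.5% of all genes, since smaller changes no longer count. Counts of calls were the same in the authors' voom table. No paired analysis was possible because the deposited tables hold no values of single samples, although the stated design pairs the groups by animal. For the same reason, leaving out each replicate was not run. What depth limits in single samples is unknown.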

Other observations

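A transcript annotated within Mthfd2 on the same strand, Gm43890, shares no exonic base with it. In the authors' deposited table it had 1.46 ± 0.24 on the log2 scale at 1 h against control (adjusted p = 5.6e-09) and 0.21 at 8 h (adjusted p = 0.517), at a mean of 0.42 log2 CPM. Mthfd2 itself rose at 1 h and was not called at 8 h.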
